A study of Mus musculus with 38 samples.

Results

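The neurotrophin genes described here are the ligands Bdnf and Ntf3, the receptors Ntrk2, Ntrk3 and Ngfr, and Vgf, a secreted protein induced by neurotrophins. They were chosen by name. A probe listed under a single gene symbol was found for 5 of these 6 genes, among 18820 genes named in that way on the arrays, and each of the 5 had exactly 1 such probe set. No such probe was listed for Ntf3, the gene of neurotrophin-3, which was not analysed here. RNA was profiled from whole brains and livers of C57BL/6J animals, an inbred mouse strain with no engineered allele named in the labels. The mice had carried slow-release pellets for 30 days, either of placebo (10 brains and 9 livers) or of haloperidol (10 brains and 9 livers), an antipsychotic that blocks dopamine D2 receptors. According to the design text each array held the tissue of a single mouse, and the age, the sex and the dose were not given in the sources used here. Values are log2 expression values made by the authors with RMA, which corrects background and brings arrays to a common scale. Changes are haloperidol minus placebo on that scale.

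Neurotrophins are secreted growth factors of the nervous system that are made as longer precursors and cut by proteases. Brain-derived neurotrophic factor (Bdnf) binds TrkB, the tyrosine kinase receptor made by Ntrk2, and neurotrophin-3 binds TrkC, made by Ntrk3. All neurotrophins also bind p75, the receptor made by Ngfr, which has no kinase and belongs to the tumour necrosis factor receptor family. Trk receptors signal through adaptor proteins to the Ras and MAP kinase, PI3 kinase and phospholipase C pathways. In brain, Trk signalling is known for supporting neurons and strengthening synapses, and in liver p75 is known from hepatic stellate cells.

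The Bdnf gene (chromosome 2, 109674700 to 109727043, GRCm38.p6) is transcribed from several start sites. The RefSeq promoter windows used here covered 7 of them, against 2 for Ntf3 and 1 each for Ntrk2 and Ngfr. These windows need not cover every RefSeq start of a gene. The array gave 1 value for the whole Bdnf gene. A pair of these promoters is shown because Bdnf transcription is known to depend on the factor CREB, which binds sites built on the letters CGTCA, or TGACG where they are read on the other strand. Each window holds the 250 bases before a RefSeq start on the plus strand, and capitals mark these letters.
Bdnf at the most upstream start, chr2:109674450-109674699: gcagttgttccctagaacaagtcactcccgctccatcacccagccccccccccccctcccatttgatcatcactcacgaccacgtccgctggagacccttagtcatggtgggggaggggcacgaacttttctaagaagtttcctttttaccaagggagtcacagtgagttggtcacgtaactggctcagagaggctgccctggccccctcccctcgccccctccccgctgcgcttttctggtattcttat
Bdnf at the third start, chr2:109692186-109692435: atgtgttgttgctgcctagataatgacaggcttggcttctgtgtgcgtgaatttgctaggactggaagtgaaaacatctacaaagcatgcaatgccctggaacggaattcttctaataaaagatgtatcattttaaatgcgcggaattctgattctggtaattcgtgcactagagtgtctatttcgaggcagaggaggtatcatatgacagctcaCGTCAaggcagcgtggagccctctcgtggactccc
In the second window they begin 35 bases before the start. It was the 1 window that held either form among the 11 windows of the 4 genes matched in the RefSeq table. Over all 32851 windows in that table, 17.8% held either form. Ntrk3 and Vgf were not matched there.

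Tissue markers went with the labels: Snap25, a synaptic protein gene, lay between 12.69 and 12.88 on the brain arrays, and Alb, the albumin gene, between 13.13 and 13.27 on the liver arrays. In brain, Alb reached 11.11 on haloperidol 4T and at most 4.51 on the placebo arrays, and 5 arrays (placebo 1L and 2R, haloperidol 1R, 2N and 3B) were high in Gh, the pituitary growth hormone gene. The median over all probes was 6.33 ± 0.0442 (SD, n = 10) on placebo and 6.20 ± 0.0721 (SD, n = 10) on haloperidol brain arrays. The brain groups thus differed in that median, and subtracting it raises every brain change by 0.136. Of the 35556 probes behind it, 12457 had no gene name. In liver it was 4.80 ± 0.0822 with placebo and 4.89 ± 0.0897 with haloperidol (SD, n = 9 each). The median change over all genes tested was -0.02 in brain and -0.02 in liver, so the genes tested in brain did not fall by 0.136 as a set. With the array median subtracted, 4088 of the brain genes were called higher and 467 lower, against 1911 and 1905 without it. Whole tissues were used, so fewer cells of a type and less RNA per cell cannot be told apart.

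In whole brain, Ntrk3 fell with haloperidol, and the other 4 genes did not pass the test. All 5 were among the 12547 genes tested in brain, after the third of genes with the lowest mean was left out. Ntrk3 was thus 1 of 5 members called at a limma adjusted p under 0.05, while 30.4% of all genes tested were called, 15.2% higher and 15.2% lower with haloperidol. This share is near the background of the comparison. The median change over the 5 was -0.13.

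Bdnf, the ligand of TrkB, was similar in the brain groups. Its level with placebo was 5.60 at the lowest, 5.83 at the median and 6.14 at the highest. With haloperidol it was 5.60, 5.82 and 6.14. The groups overlapped over almost their whole range, and 5 of 10 haloperidol arrays were below the placebo mean. The change was -0.04 (SE 0.0822, 95% interval -0.21 to 0.13, limma adjusted p = 0.736). It was 0.10 with each array's median subtracted and 0.09 after quantile normalization. With array weights it was 0.02, and without the arrays high in Gh also 0.02, so its sign was not settled. Bdnf lay near the lower end of the genes tested, with a mean of 5.85 against a limit of 5.515.

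Vgf, the precursor of several secreted peptides stored in dense-core granules, was lower on a part of the haloperidol arrays. With placebo its level was 7.85 at the lowest, 8.23 at the median and 8.51 at the highest. On the haloperidol arrays it was 7.46, 7.86 and 8.54. Haloperidol arrays 2L, 2T, 3B, 3R and 4N were below every placebo array and 1 was above them all. The spread was therefore wider with haloperidol, 7.95 ± 0.355 against 8.22 ± 0.194 (SD, n = 10 each). The change was -0.27 (SE 0.118, 95% interval -0.51 to -0.03, p = 0.0320), which did not pass after adjustment by limma (adjusted p = 0.0831). It did pass in limma fits without haloperidol 1R (adjusted p = 0.0448), 4L (0.0352) or 4T (0.0227) or without placebo 4R (0.0492). These were the haloperidol arrays highest in Vgf and the placebo array lowest in it, so their omission widens the fall by construction. The other 16 of the 20 limma fits without 1 array did not pass, with adjusted p up to 0.157. With array weights the Vgf change passed (-0.30, limma adjusted p = 0.0169). With the array median subtracted, the Vgf change was -0.13 (limma adjusted p = 0.399), and with it as a covariate -0.26 (limma adjusted p = 0.919, the highest of its alternatives).

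Ntrk2 encodes TrkB, and its single probe set does not separate the full-length receptor from the truncated forms that lack the kinase. With placebo its level was 10.71 at the lowest, 10.78 at the median and 10.95 at the highest. With haloperidol it was 10.45, 10.64 and 10.85. Haloperidol arrays 1B, 2L, 2T, 3B, 3R and 4N were below every placebo array, and the other 4 were within the placebo range. The change was -0.13 (SE 0.0571, 95% interval -0.25 to -0.02, p = 0.0285), which missed the threshold after adjustment (limma adjusted p = 0.0769). It passed in limma without haloperidol 1R (adjusted p = 0.0377), 4L (0.0463) or 4T (0.0473). These are among the 4 haloperidol arrays highest in Ntrk2, so their omission deepens the fall by construction. The other 17 of the 20 limma fits without 1 array did not pass, with adjusted p up to 0.145. The Ntrk2 change also passed in limma with array weights (-0.13, adjusted p = 0.0379) and after quantile normalization (-0.20, adjusted p = 0.0225). With the array median subtracted the Ntrk2 change was 0.0025 (limma adjusted p = 0.980, the highest of its alternatives), so its sign turned with that scaling.

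Ntrk3, which encodes TrkC, was the member with an adjusted p under 0.05. With placebo its level was 9.42 at the lowest, 9.60 at the median and 9.91 at the highest. The haloperidol arrays gave 9.09, 9.30 and 9.77. The 6 haloperidol arrays below every placebo array were the same as for Ntrk2, and haloperidol 1R, 2N, 4L and 4T lay within the placebo range. The group means were 9.66 ± 0.157 and 9.36 ± 0.262 (SD, n = 10 each), and 8 of 10 haloperidol arrays were below the placebo mean. Ntrk3 fell by 0.30 on the log2 scale (SE 0.092, 95% interval of the change -0.49 to -0.11, limma adjusted p = 0.0186), which is 1.23-fold lower. Of all genes tested in brain, 13.6% had at least 6 haloperidol arrays below the lowest placebo array, and for 375 genes these were exactly the 6 arrays found for Ntrk3.

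The Ntrk3 call held with each brain array left out in turn (limma adjusted p between 0.00493 and 0.0398). It was lost in limma with the array median subtracted (-0.16, adjusted p = 0.133), with the array median as a covariate (-0.05, adjusted p = 0.957) and without placebo 1L and haloperidol 4N and 4T (-0.28, adjusted p = 0.0518). With that covariate 0 of all genes tested in brain were called, so a lost call there does not single out Ntrk3. The size of its change did shrink, from -0.30 to -0.05. Ntrk2 went from -0.13 to -0.07, Vgf from -0.27 to -0.26, Bdnf stayed at -0.04, and Ngfr went from -0.05 to -0.12. A Wilcoxon rank sum test gave an adjusted p of 0.0551.

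Ngfr, the p75 gene, had overlapping brain groups. With placebo its level was 6.95 at the lowest, 7.09 at the median and 7.26 at the highest. With haloperidol it was 6.74, 7.02 and 7.32. Haloperidol arrays reached both below and above the placebo range, with 4 below its lowest value. The change was -0.05 (SE 0.0671, 95% interval -0.19 to 0.08, limma adjusted p = 0.554), and it was 0.08 with the array median subtracted and 0.04 after quantile normalization.

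**Figure D1:**
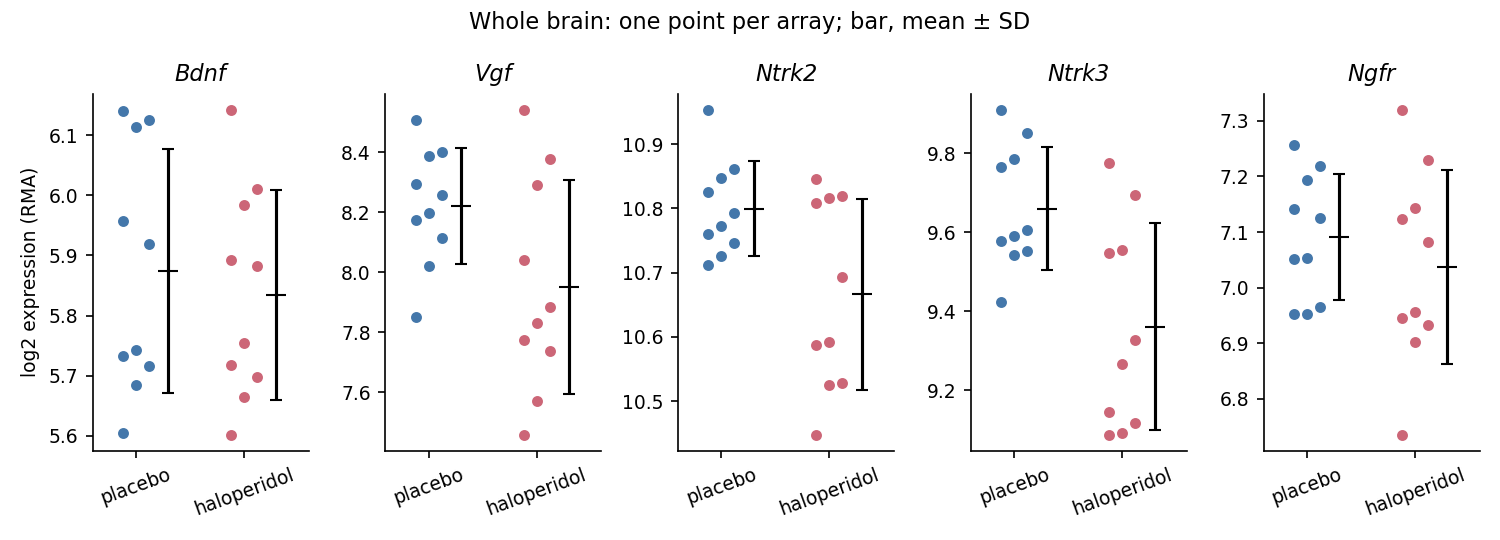
Log2 expression of Bdnf, Vgf, Ntrk2, Ntrk3 and Ngfr on the 10 placebo and 10 haloperidol brain arrays; each point is 1 array and the bar is the mean ± SD, with a separate vertical axis for each gene. For Ntrk2 and Ntrk3, 6 haloperidol points lie below every placebo point, while the Bdnf groups both run from 5.60 to 6.14.

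**Figure D2:**
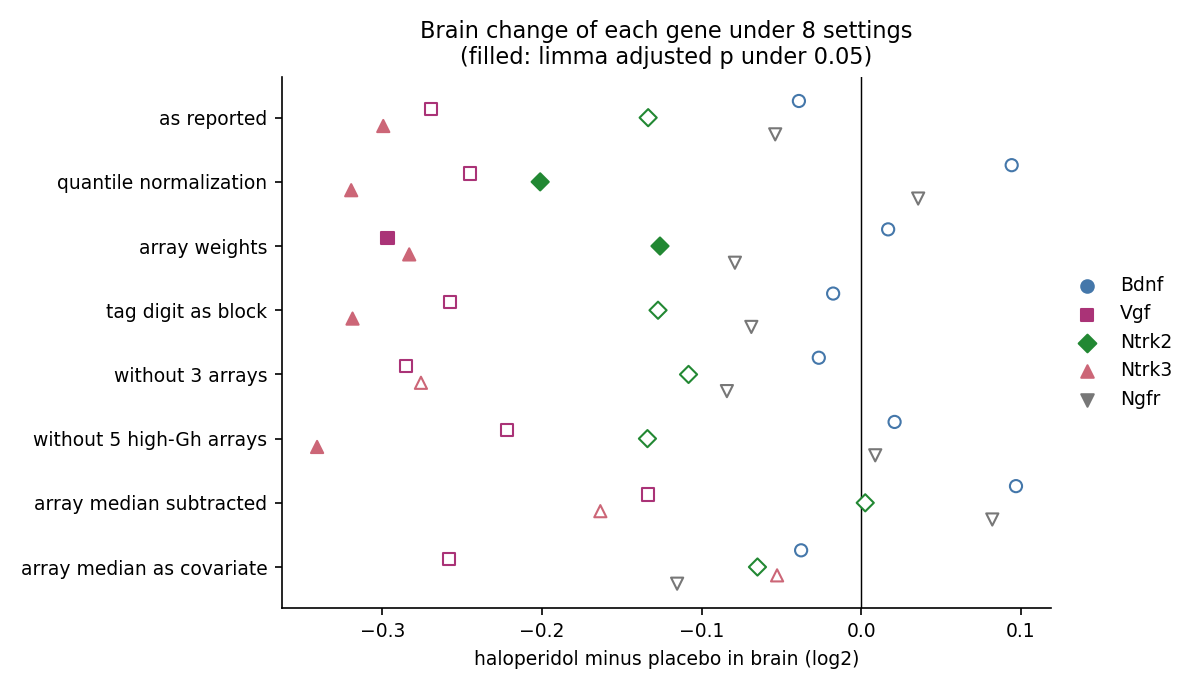
Haloperidol minus placebo in brain (log2, horizontal axis) for each gene under 8 settings of the analysis, with filled symbols where the limma adjusted p was under 0.05; the setting without 3 arrays omits haloperidol 4N and 4T and placebo 1L. Ntrk3 stays below 0 in the 8 settings shown but passes in 5 of them, and Bdnf, Ngfr and Ntrk2 lie above 0 with the array median subtracted.

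The level of Ntrk3 moved with the array median among placebo brains. Over the 10 placebo arrays Pearson's r was 0.830 (permutation p = 0.00388, adjusted over 10 relations 0.0388) and Spearman's rank correlation was 0.867 (permutation p = 0.00235, adjusted 0.0235). Without placebo 4R and 1N, the arrays farthest from the median on that axis, r was 0.763. Among the 10 haloperidol arrays r was 0.382 (permutation p = 0.278, adjusted 0.764) and Spearman's rank correlation was 0.539 (permutation p = 0.112, adjusted 0.562), and without haloperidol 1R and 4N r was -0.160. The array median was also lower with haloperidol, so the covariate and the subtraction given above cannot separate its part in the Ntrk3 change from the treatment. That part was not tested in another way. For the other 4 genes in the 2 groups the adjusted permutation p of r was 0.764 or higher, for 8 relations. Leaving out haloperidol 1R and 4N moved r among haloperidol arrays from -0.146 to -0.717 for Bdnf, from -0.0430 to -0.687 for Vgf, from 0.288 to -0.540 for Ntrk2 and from -0.378 to -0.607 for Ngfr, so those values rest on these arrays.

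**Figure D3:**
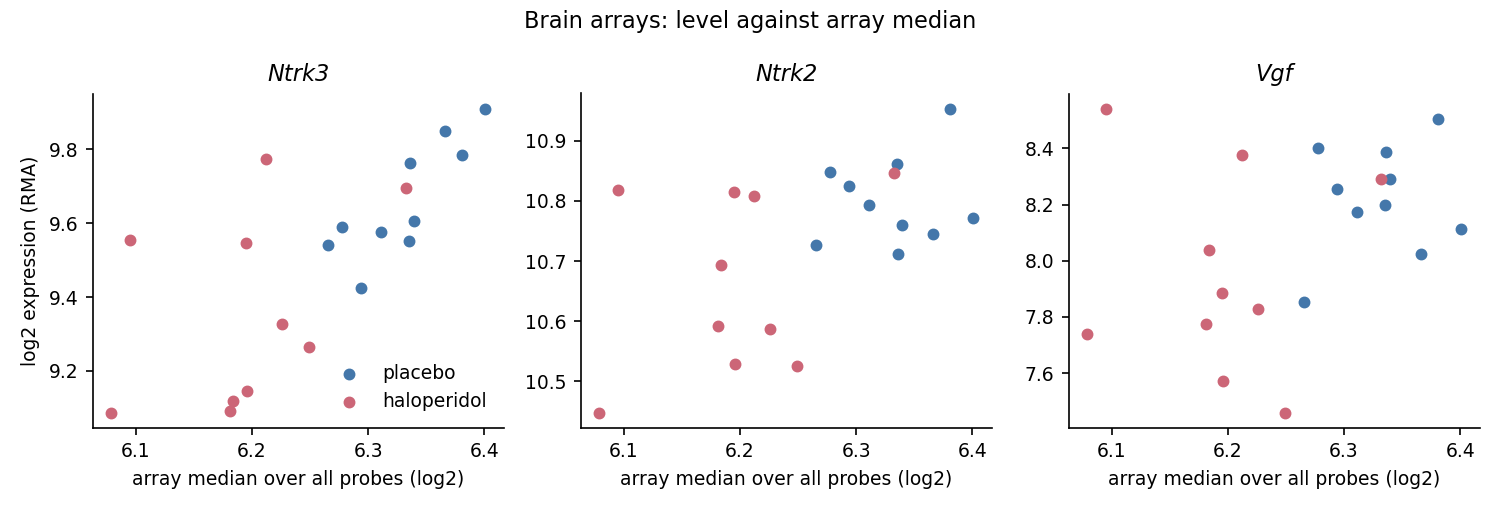
Log2 expression of Ntrk3, Ntrk2 and Vgf (vertical axes) against the median over all probes of the same brain array (horizontal axes, log2), 1 point per array, blue for placebo and red for haloperidol. Haloperidol arrays have medians of 6.079 to 6.332 and placebo arrays 6.266 to 6.401, and the placebo points of Ntrk3 rise with the median.

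The members varied together to different degrees within the groups. After each group's mean was subtracted, Pearson's r over the 20 brain arrays was 0.781 for Ntrk2 with Vgf, 0.728 for Ngfr with Vgf and 0.722 for Bdnf with Vgf. It was 0.624 for the receptor genes Ntrk2 and Ntrk3, and the lowest of the 10 pairs was Bdnf with Ntrk3 at 0.25. These values are descriptions, since genes on an array share its RNA and its array-wide level.

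The genes most like each member in brain were taken by the same within-group r over 20 arrays. For Ntrk3 they were Tiam1, an exchange factor for the GTPase Rac (0.915), Kdm2b, a histone demethylase (0.915), and Cep131, a centrosomal protein gene (0.915). For Ntrk2 they were the histone acetyltransferase gene Kat7 (0.948), the Rap exchange factor gene Rapgef2 (0.921) and the Mediator subunit gene Med15 (0.920). For Vgf they were Cap2, an actin regulator (0.942), Slc2a3, a glucose transporter of neurons (0.930), and Midn (0.926). Bdnf was nearest to Prkg2, a cyclic GMP dependent kinase gene (0.835), to the nuclear receptor gene Nr4a3 (0.804) and to Cdyl2 (0.798). For Ngfr they were Actl6b, a chromatin remodelling subunit of neurons (0.855), Plppr4 (0.853) and the sugar transporter gene Slc45a1 (0.850).

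Genes around the neurotrophins, from processing enzymes to kinase cascades, moved in both directions in brain. The pathway lists held 139 genes, of which 116 were measured and 108 tested in brain, and 16 of the 108 (14.8%) passed, 5 higher and 11 lower, against the 30.4% of all genes given above. The median change over the 108 was -0.08, against -0.02 over all genes. The split turned with the scaling: with the array median subtracted, 22 were higher and 1 lower, and with the median as a covariate 0 passed in either direction and the signs of Sh2b3, Plcg1, Irs1, Crtc2 and Crebbp, described next, turned. The number of lower genes was 5 without placebo 2B or without haloperidol 3B, 3R or 4N, 6 without placebo 1N, and 7 without placebo 2R, 3L, 3N or 3T. It was 17 without placebo 4R, 19 without haloperidol 4T and 23 without haloperidol 4L. The counts per list given below stand against 15.2% of all genes called in each direction.

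Ntf5, the gene of neurotrophin-4, was below the limit for testing in both tissues, with group means of 4.42 with placebo and 4.44 with haloperidol in brain. Among 8 receptors and co-receptors tested, 1 fell: Sorl1, a sorting receptor, changed by -0.21 (limma adjusted p = 0.0178). The median of these 8 was -0.13. Among 8 genes of precursor processing, 1 rose: Serpini1, the neuronal inhibitor of tissue plasminogen activator, changed by 0.36 (limma adjusted p = 0.0187).

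Adaptors of the receptors included 5 that fell or rose. Of 20 Trk adaptors tested, 4 fell and 0 rose, with a median of -0.08, where 15.2% of all genes were called lower. Kidins220, a scaffold bound by Trk receptors and p75, changed by -0.26 (SE 0.068, limma adjusted p = 0.00946) and was below the placebo mean on 9 of 10 haloperidol arrays. Smaller falls were found for Sh2b3 (-0.20), for the phospholipase C gene Plcg1 (-0.21) and for the insulin receptor substrate gene Irs1 (-0.22), with limma adjusted p of 0.0352, 0.0472 and 0.0496. Those 3 calls were lost in 9, 13 and 14 of the 20 fits that left out 1 brain array. Of 5 p75 adaptors, 1 rose: Arhgdib, a gene known from blood cells, changed by 0.41 (limma adjusted p = 0.0134).

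Of 10 Ras and MAP kinase genes tested, 2 fell and 2 rose, where 15.2% of all genes were called in each direction. Rps6ka3, which encodes the kinase RSK2 downstream of ERK, fell by 0.32 (SE 0.0722, limma adjusted p = 0.0052), with all 10 haloperidol arrays below the placebo mean. Mapk7, the ERK5 gene, fell by 0.31 (SE 0.076, limma adjusted p = 0.00637). The small GTPase genes Rap1a and Rap1b rose by 0.25 and 0.39 (limma adjusted p = 0.0184 and 0.0189). With the array median subtracted, Rps6ka3 was the lower gene that still passed (-0.18, limma adjusted p = 0.0384). Of 11 genes of the PI3 kinase and AKT cascade, 2 fell, both catalytic subunits: Pik3ca by 0.22 (limma adjusted p = 0.0142) and Pik3cd by 0.23 (limma adjusted p = 0.0388, lost in 10 of the 20 fits without 1 array).

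The factors that regulate Bdnf transcription, and the granule proteins stored beside Vgf, were mostly not called. Of 12 regulators, 2 fell, both coactivators of CREB: Crtc2 by 0.23 (limma adjusted p = 0.0347) and Crebbp by 0.24 (limma adjusted p = 0.0375), and these calls were lost in 9 and 12 of the 20 fits without 1 array. Creb1 itself was at 9.37 with placebo and 9.34 with haloperidol (limma adjusted p = 0.678). Of 10 granins and granule proteins, 1 rose: Scg5, a chaperone of the prohormone convertase PC2, changed by 0.32 (limma adjusted p = 0.00669), while the list's median was -0.15. The granins Chga (-0.21) and Chgb (-0.21) did not pass (limma adjusted p = 0.0659 and 0.0670).

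Genes induced by Trk signalling, and other neurotrophic factors, had 0 calls. None of the 10 Trk-induced genes passed in limma, 2 had an unadjusted p under 0.05, the median was -0.15, and the smallest p belonged to Arc (-0.20, limma adjusted p = 0.0867). None of the 14 tested genes of other neurotrophic factors and their receptors passed in limma, 4 had an unadjusted p under 0.05, and the median was -0.01. The one of smallest p was Ptn, the pleiotrophin gene (0.17, limma adjusted p = 0.0672).

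**Figure D4:**
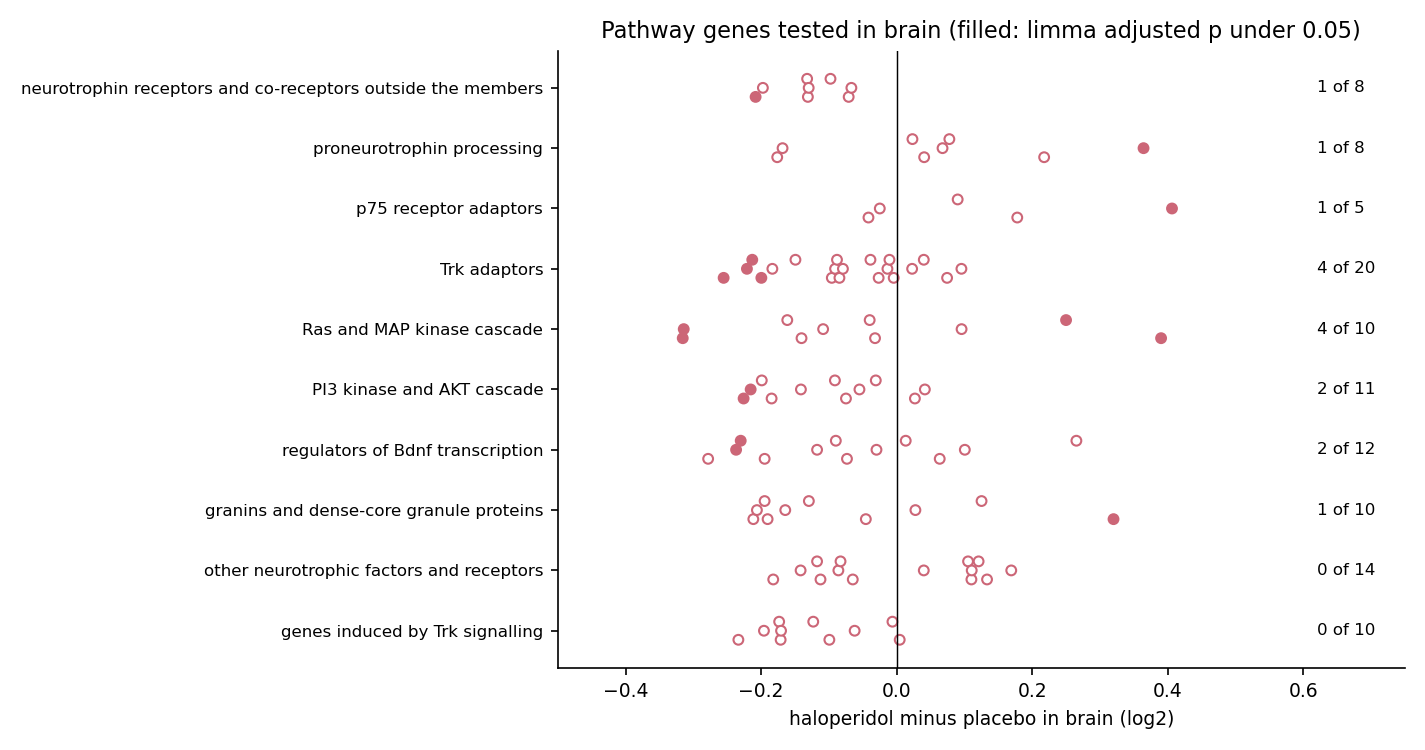
Haloperidol minus placebo in brain (log2, horizontal axis) for the 108 pathway genes tested, 1 point per gene and 1 row per list, filled where the limma adjusted p was under 0.05; numbers at the right are genes that passed of those tested. The Trk adaptors that passed lie below 0, the Ras and MAP kinase list has 2 on each side, and the last 2 lists have 0.

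Markers of the cell types that hold these genes were measured on the same arrays. None of 5 neuron, 6 astrocyte, 4 oligodendrocyte, 4 oligodendrocyte precursor or 4 cholinergic neuron markers passed in limma, where 2 neuron markers and 0 of the others had an unadjusted p under 0.05. On the log2 scale the mean of the neuron markers ranged from 11.64 to 11.80 with placebo and from 11.57 to 11.85 with haloperidol. Of 5 microglia and macrophage markers, 3 were higher (Aif1 by 0.57, Tyrobp by 0.75 and C1qa by 0.30), while Cx3cr1 (0.16) and Csf1r (-0.01) did not pass. Their mean level was 7.32 to 7.82 with placebo and 7.60 to 8.22 with haloperidol. Over all genes tested, 15.2% were called higher. Of 6 fibroblast markers 2 were higher and of 6 vascular markers 1, and the others of these lists did not pass. The red cell gene Alas2, the only 1 of 7 listed blood genes that was measured, was higher by 0.85. These markers moved in the same comparison as Arhgdib and Ntrk3, and their part in those changes was not tested.

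In liver, no gene of the family passed. Only Bdnf and Ngfr were above the limit of 3.925 and tested, and 0 of the 2 passed, as did 0 of 12547 genes (0%), where 1316 had an unadjusted limma p under 0.05 and a Wilcoxon rank sum test also called 0. Of 91 pathway genes tested in liver 0 passed, and 5 had an unadjusted p under 0.05.

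Ngfr was higher on some haloperidol livers. With placebo its level was 6.47 at the lowest, 6.71 at the median and 6.85 at the highest. The haloperidol livers gave 6.62, 6.81 and 7.27. The ranges overlapped, with 7 of 9 haloperidol arrays above the placebo mean and 4 above every placebo array. The change was 0.17 (SE 0.0814, 95% interval 0.0025 to 0.34, p = 0.0470), which did not pass after adjustment (limma adjusted p = 0.468). With the array median subtracted, which lowers liver changes because that median was higher with haloperidol, it was 0.09 (limma adjusted p = 0.616).

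The 2 livers highest in Ngfr, haloperidol 2T (7.27) and 3B (6.96), were also the 2 highest in the neuronal gene Snap25, at 4.40 and 4.71 where the other 16 livers were at most 3.56. The remaining 4 neuron markers, Syt1, Syn1, Rbfox3 and Stmn2, lay within the range of the other livers on both arrays. The mean of the 5 neuron markers was 3.82 to 4.13 over placebo and 3.78 to 4.31 over haloperidol livers. Without these 2 arrays, an omission that lowers the change by construction since they hold the highest Ngfr values, the Ngfr change was 0.10 (limma adjusted p = 0.640, within 0.288 to 0.970 over its alternatives). Of 7 stellate cell markers tested in liver, 0 passed, with a mean level of 7.16 to 7.77 with placebo and 7.01 to 7.74 with haloperidol. Of 2 peripheral nerve and Schwann cell markers tested in liver, 0 passed (Sox10 -0.15, Prph -0.11). The part of nerve or stellate cells in the Ngfr values was not tested.

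Bdnf was near the limit in liver, with a mean of 3.93. With placebo its level was 3.67 at the lowest, 3.93 at the median and 4.37 at the highest. With haloperidol it was 3.75, 3.91 and 4.04, inside the placebo range. The gene entered the test through its placebo values, since the mean was 3.96 with placebo and 3.89 with haloperidol. The change was -0.07 (SE 0.075, 95% interval -0.23 to 0.09, limma adjusted p = 0.748), and -0.16 once the array median was subtracted (limma adjusted p = 0.267).

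Ntrk2, Ntrk3 and Vgf were below the limit in liver and were not tested. Ntrk2 was at 3.88 ± 0.276 with placebo and 3.83 ± 0.343 with haloperidol (SD, n = 9 each). Ntrk3 was at 3.55 ± 0.323 and 3.48 ± 0.239. Vgf was at 3.55 ± 0.392 and 3.50 ± 0.274. The groups overlapped for each of these 3 genes, and in a limma fit without the limit their adjusted p were 0.962, 0.918 and 0.960.

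**Figure D5:**
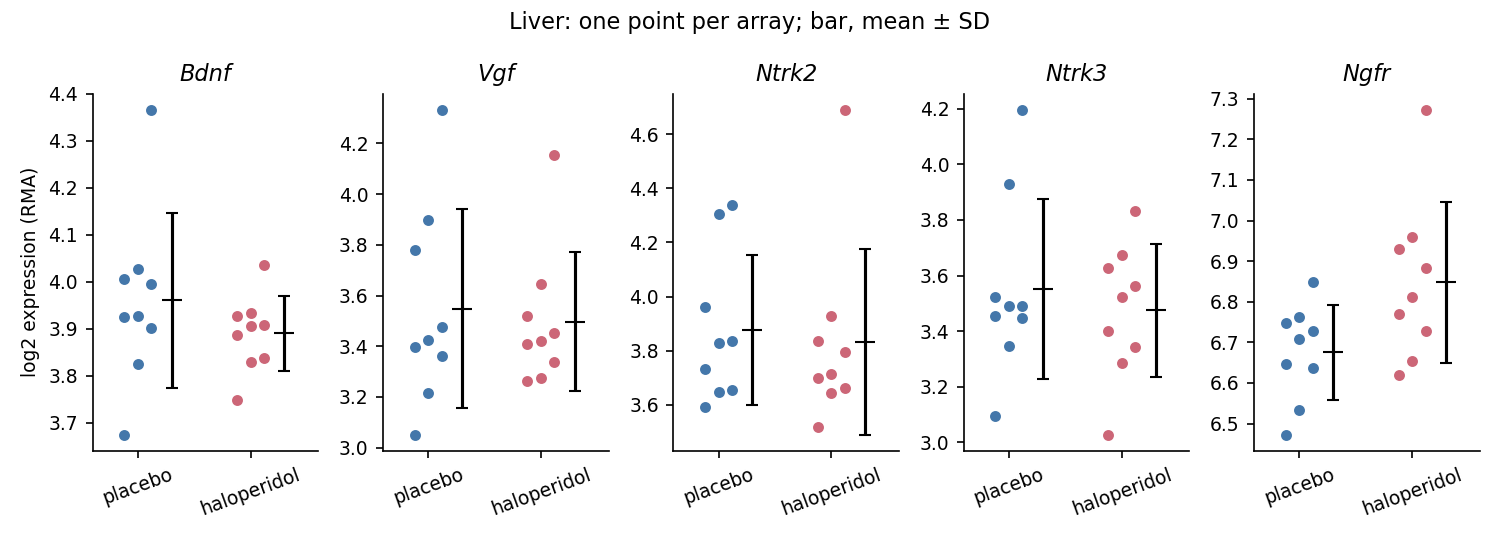
Log2 expression of the same 5 genes on the 9 placebo and 9 haloperidol liver arrays; each point is 1 array and the bar is the mean ± SD, with a separate vertical axis for each gene. Ngfr reaches 7.27 on 1 haloperidol array and 6.85 at most with placebo, and Vgf, Ntrk2 and Ntrk3 lie at levels that were not tested.

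Levels in the tissues can be set side by side as a description. The means over all arrays were 10.73 in brain and 3.85 in liver for Ntrk2, 9.51 and 3.51 for Ntrk3, and 8.09 and 3.52 for Vgf. Bdnf was at 5.85 and 3.93, and Ngfr was at 7.06 and 6.76. The tissues appear to have been normalized apart, with higher array medians in brain, so no test is given. Relative to the mean array median of its tissue, Ngfr was lower in brain (0.80) than in liver (1.92), while the other 4 genes remained higher in brain.

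The liver change was compared with the brain change for the 2 members tested in both tissues, among 10869 genes of which 23% were called, 9.16% with a higher and 13.9% with a lower change in liver. Neither member was called. For Ngfr, with -0.05 in brain and 0.17 in liver, the difference was 0.23 (SE 0.104, 95% interval 0.01 to 0.44, p = 0.0366), which did not pass (limma adjusted p = 0.110). That difference was 0.0035 once the array median was subtracted (limma adjusted p = 0.985) and 0.11 after quantile normalization (limma adjusted p = 0.503). For Bdnf, which entered the liver test through its placebo values, it was -0.03 (SE 0.112), and -0.25 once the array median was subtracted (limma adjusted p = 0.0739). Over the 18 livers, the genes most like Ngfr by the within-group r were Bok, of the Bcl-2 family (0.847), Lhx4 (0.838) and Lypd2 (0.808), and those most like Bdnf were Wdfy1 (0.735), Zfp52 (0.728) and Sebox (0.686).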

How the data were processed

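Values of 35556 probes on 38 Affymetrix arrays were used as deposited, on a log2 scale, which the submitters' processing notes say the authors obtained by RMA through Affymetrix Expression Console. The array model and the scan dates were not given in the sources used here. Probes with 1 gene symbol in GEO's platform annotation (21218) were kept, and the one of highest mean per gene was used. Within each tissue the lowest 33.3% of genes by mean were left out.

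Haloperidol was compared with placebo with lmFit and eBayes of limma 3.58.1 (R 4.3.3; two-sided), with Benjamini-Hochberg adjustment over all genes tested, a threshold of 0.05 and intervals of 95%. The contrast of the liver with the brain change used all 38 arrays. The members and lists were chosen with earlier results of these data known. Up to 4 passing genes of each pathway list were named, or where none passed, the gene of smallest p, and the 3 genes of highest within-group r with each member; Creb1, Chga and Chgb were added after their values were seen. Correlations with the array median used permutation tests with 100000 resamples, adjusted over 10 relations. Alternatives covered filters, scaling, blocks, weights and arrays left out, and the omission of liver arrays 2T and 3B was chosen after seeing the data. Arrays of a group correlated at 0.964 to 0.992. The fits were tested on simulated data, drawn separately for each gene. Of added changes of 0.25, 41.8% were recovered in brain, 8.96% in liver and 13.4% in the contrast of tissues. Of added changes of 0.5, these were 91%, 56.7% and 65.7%. The simulated arrays had no level shared by their genes, and few genes were given a change, while 30.4% of genes were called in brain. The shares recovered may therefore differ from those on the real arrays. The number of arrays limits the precision.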

Additional observations from a re-analysis of the deposited data

Results flagged for a closer look

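On 2 of the 20 groups of values checked (5 genes in 4 groups), 1 array stood apart from the rest. The rule is set to flag about 1 in 20 groups of normally distributed values, and its rate was not measured in these data. Ntrk2 was at 4.69 in liver of haloperidol 3R, against 3.93 in the next highest of the 9 arrays. Vgf was at 4.15 in liver of haloperidol 3B, against 3.64 in the next highest. Both genes were below the limit for testing in liver, and 3B was also the liver highest in Snap25 (4.71), while Syt1, Syn1, Rbfox3 and Stmn2 on it lay within the range of the other livers.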

How the results depend on the processing

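The count of members called in brain, 1 as reported, was 0 with the array median subtracted, with it as a covariate, by the Wilcoxon test and without placebo 1L and haloperidol 4N and 4T, 2 after quantile normalization and 3 with array weights. It ranged from 1 to 3 over fits without 1 array. The counts of members in liver and in the contrast of tissues were 0 under each alternative run. Changes whose sign turned were those of Bdnf in brain (0.097 with the median subtracted, 0.094 after quantile normalization, 0.017 with array weights, 0.021 without the arrays high in Gh), Ntrk2 (0.0025 with the median subtracted) and Ngfr in brain (0.082, 0.036 and 0.0087 with the median subtracted, after quantile normalization and without the arrays high in Gh). With the median as a covariate they were Sh2b3 (0.061), Plcg1 (0.013), Irs1 (0.084), Crtc2 (0.020) and Crebbp (0.033). The Bdnf contrast of tissues was 0.0030 without brain haloperidol 4T and 0.019 without liver placebo 3T, and ranged from -0.067 to 0.019 over fits without 1 array, and it was -0.25 with the median subtracted, where the Ngfr contrast was 0.0035. The causes were not tested beyond the construction of each alternative. The 11 pathway genes lower in brain became 5 without the filter, 1 with the median subtracted, 17 after quantile normalization, 0 with the covariate, 6 with the tag letter as a block, 24 with array weights, 7 with all arrays in 1 fit and 7 without the 3 arrays named above, and ranged from 5 to 23 over fits without 1 array. The 5 higher became 22 with the median subtracted and 0 with the covariate. Over all genes, 3816 calls in brain became 0 with the covariate and 2518 without those 3 arrays. The 0 in liver became 40 with all arrays in 1 fit and 1 without haloperidol 1B, and the 2502 in the contrast became 4345 with the median subtracted.

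Sample names carry a tag of a digit and a letter. With the tag digit as a replicate block, Ntrk3 changed by -0.32 (limma adjusted p = 0.0121), 1 member was called in brain and 0 in liver, and of the results named here the call of Irs1 was lost (-0.22, limma adjusted p = 0.0647). With the whole tag as a random replicate block, the Ngfr contrast was 0.23 (limma adjusted p = 0.121). Each of the 18 tags found in both tissues had the same treatment in brain and liver. The deviations of brain and liver arrays of the same tag correlated with r of -0.318 to 0.249 (median 0.00114), with 5 over 0.1. Weak correlation between different tissues cannot decide whether a tag stands for the same mouse. The main contrast did not take the tag as a pairing, and whether the tissues shared mice was not established.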

Other observations

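For the 3 members below the limit in liver, the contrast of the liver change with the brain change can be computed in a limma fit without that limit. It was 0.22 for Ntrk3 (SE 0.157, adjusted p = 0.386), 0.22 for Vgf (SE 0.191, adjusted p = 0.503) and 0.09 for Ntrk2 (SE 0.146, adjusted p = 0.748). The liver values behind these contrasts lie near the lower end of the scale.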
